A study of Mus musculus with 12 samples.

Results

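The genes described here encode cytoplasmic translation factors and aminoacyl-tRNA synthetases. They were chosen by symbol, as the rows of the deposited expression table that begin with Eif1 to Eif6 or with Eef1 or Eef2 (without Eif2s3x and Eif2s3y), together with the synthetase symbols such as Aars, Eprs, Farsa and Lars2. The rule took 102 of 23420 genes, of which 37 are synthetases and 65 are not. Of the 65, Eif2c1 to Eif2c4 are older symbols of the Argonaute genes, which act in small RNA silencing, and they are kept apart below. A further gene, Eef1e1, bears an elongation factor symbol but encodes a scaffold protein of the multisynthetase complex. It is counted with the elongation genes below, in counts, shares and figures.

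RNA was measured in mouse fetal liver cells that were negative for lineage markers and positive for c-Kit and were sorted by the paired immunoglobulin-like receptor, PIR. The 12 libraries, made from tubes of 100 cells each, form 4 groups of 3: PIR+ KO, PIR+ wild type, PIR- KO and PIR- wild type. The labels do not name the gene knocked out in the KO animals, so its message could not be checked, and they give no strain. The cells stand for fetal progenitors only as far as the sort defines them, and no label tells if a group holds 1 animal or several.

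Groups were taken from the sample titles. In 6 of the 12 libraries the field for sorting markers carries the other PIR sign. The source name gives the age as E12.5 or E14.5, and each group of 3 holds both ages, which run with the sorting markers field and not with the titles. Lilrb3, which encodes PIR-B, was 6.2 to 12.2 in PIR+ KO libraries, 9.5 to 14.3 in PIR+ wild-type libraries and 0 in all 6 PIR- libraries, as the titles have it. Kit was above 0 in every library, at 18.6 to 56.3. Of the 6 libraries with the other sign, 5 also carried much globin message, with Hba-a1 above 300, and these are called globin-rich below. The 8 B-lineage markers summed to 12.8 to 24.4 in PIR+ KO, 25.0 to 35.5 in PIR+ wild-type, 644 to 986 in PIR- KO and 764 to 1038 in PIR- wild-type libraries. The 8 neutrophil and monocyte markers summed to 84.5 to 140 in PIR+ KO, 88.9 to 119 in PIR+ wild-type, 20.9 to 52.5 in PIR- KO and 5.8 to 20.1 in PIR- wild-type libraries. Igll1 and Vpreb1, which encode the surrogate light chain of early B cells, were at 0 in the 3 PIR+ KO libraries. In PIR+ wild-type libraries they were 0 to 1.9 and 0 to 0.7. Igll1 was 185.9 to 277.0 in PIR- KO and 233.2 to 308.3 in PIR- wild-type libraries. Vpreb1 was 73.6 to 103.6 and 92.5 to 135.2 in the same groups. Ddx3y, a gene on the Y chromosome, was 0.8 to 2 in PIR+ KO and 7.3 to 9.2 in PIR- KO libraries. In wild type it was 5.4 to 7.9 in PIR+ and 4.2 to 7.8 in PIR- libraries. The PIR+ KO libraries thus lay below all others, and the part of sex in comparisons with that group was not tested. The part of cell makeup in the differences below was not tested, and in such bulk samples fewer cells of a type and less RNA per cell cannot be told apart.

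Translation of an mRNA begins when eIF2 delivers the initiator tRNA to the small ribosomal subunit, eIF3 and the eIF1 family hold that complex open for scanning, and the eIF4 factors bind the cap and unwind the leader. Elongation factors then carry charged tRNAs to the ribosome and move it along, and the synthetases supply those tRNAs by joining each amino acid to its tRNA. Kinases and binding proteins turn the process down: the Eif2ak kinases phosphorylate eIF2, the 4E-binding proteins hold eIF4E away from the cap complex, and eEF2 kinase, encoded by Eef2k, phosphorylates and slows eEF2.

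Values are molecule counts that the authors normalized, and 1 molecule was worth about 0.490 to 0.775 units depending on the library. A gene was tested if 3 or more libraries had it at 10 or above, which at this depth corresponds to about 12.9 to 20.4 molecules. Of the 102 genes, 72 passed among 4542 genes in all, and 30 did not. All 14 eIF3 genes passed, as did 19 of 20 cytosolic synthetases, 10 of 12 eIF4 factors, 9 of 10 eIF1, eIF5 and eIF6 genes, 6 of 7 elongation genes, 5 of 9 eIF2 and eIF2B genes, 4 of 9 regulators, 4 of 17 mitochondrial synthetases and 1 of 4 Argonaute genes. Eef1a2 and Eif4e1b, whose products are known from muscle and brain and from oocytes, were listed at 0 in every library. The 4 eIF2 kinases Eif2ak1 to Eif2ak4 were detected in all 12 libraries but stayed below the filter, with a highest value of 12.2 for Eif2ak4.

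Promoter sequence was compared for one motif, CACGTG, the E-box bound by Myc family and related factors, because some translation factor genes are known to carry it. It reads the same on both strands and was searched in the 300 bases from 250 before to 50 after each RefSeq start on GRCm38.p6. Of the 53 tested genes of this family with a promoter entry, 15 held it (28.3%), against 471 of 3470 of all genes tested (13.6%) and 8.09% of all promoters in the table. Among the 28 called higher in PIR+ wild-type cells 9 held it (32.1%), and among the other 25 it was in 6 (24%). The other 11 of the 15 were Aars, Eif1b, Eif3a, Eif3f, Eif4a1, Eif4e, Eif4g1, Eif4h, Eif5a, Farsb and Tars. Upstream matches of 4 genes are shown as 1 example each of a regulator, an elongation factor, an eIF3 subunit and a synthetase, chosen after the values were seen. Capitals mark the motif within 30 bases given 5′ to 3′ on the gene's own strand. They lie at chr7:120842788-120842817 (plus strand, Eef2k), chr10:81176576-81176605 (plus strand, Eef2), chr7:28981915-28981944 (minus strand, Eif3k) and chr13:49682049-49682078 (plus strand, Iars).
Eef2k: cccggggacggcCACGTGagcccgggcgtg
Eef2: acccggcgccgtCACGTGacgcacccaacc
Eif3k: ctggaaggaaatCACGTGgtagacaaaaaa
Iars: gaccaatcgccaCACGTGttgtttgtaggt
The match is a description of these letters and not of binding. In PIR+ wild-type cells Eef2 and Eif3k were called higher and Iars was not called on the deposited scale, while Iars was called lower and the other two were not called after scaling. Eef2k was called lower on both scales.

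The 102 genes together held a narrow share of each library. Their summed values were 2.82% to 2.86% of the total in PIR+ KO, 2.75% to 2.80% in PIR+ wild-type, 2.71% to 2.88% in PIR- KO and 2.51% to 2.63% in PIR- wild-type libraries. The 3 PIR- wild-type libraries lay below all 9 others. Eef1a1 alone made up 21.2% to 24.5% of the family's sum. The elongation genes, which held 1.11% to 1.12% in PIR+ KO, 1.04% to 1.13% in PIR+ wild-type, 1.08% to 1.10% in PIR- KO and 0.901% to 0.989% in PIR- wild-type libraries, were also lowest in the PIR- wild-type libraries. Messages of 14 erythroid genes were 0.0205% to 0.942% of a library. With them taken out of the total the family's share was 2.53% to 2.63% in PIR- wild-type libraries and 2.73% to 2.88% in PIR- KO libraries. The PIR- wild-type libraries were still the lowest. Other RNA of erythroid cells stayed in the total, so the part of such cells was not tested.

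**Figure D1:**
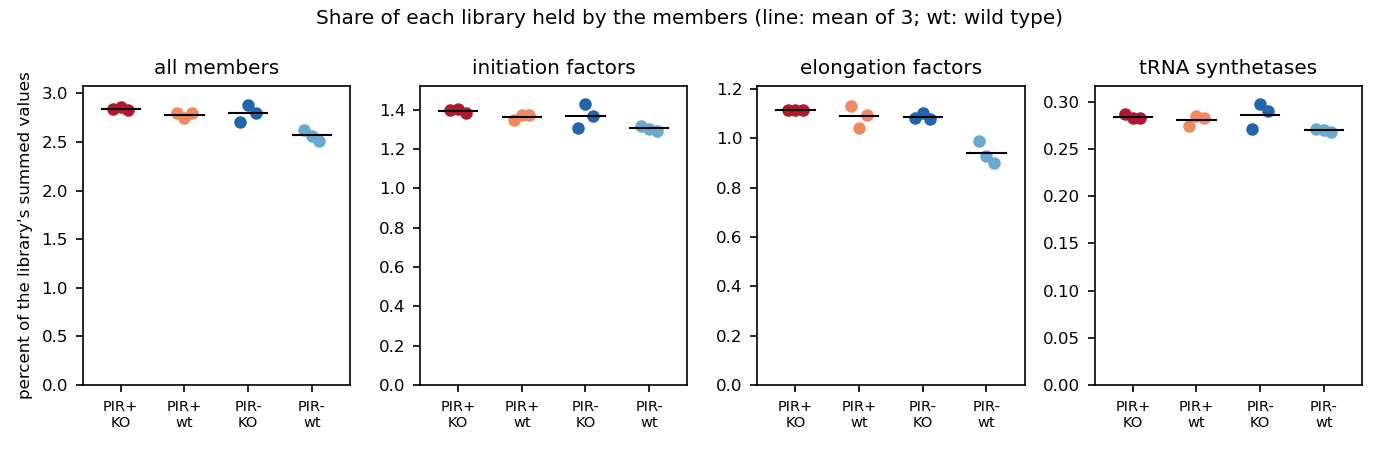
Share of each library's summed values (percent, vertical axis from 0) held by all 102 genes, the initiation factors, the elongation genes and the synthetases, in PIR+ KO, PIR+ wild-type, PIR- KO and PIR- wild-type libraries. Points are single libraries and lines are means of 3. The PIR- wild-type libraries are lowest for the whole family, at 2.51% to 2.63%.

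In wild-type cells most of these genes were higher in the PIR+ subset on the deposited scale, and so were most genes of the table. Of the 72 tested, 37 were called higher and 1 lower in PIR+ by limma (Benjamini-Hochberg adjusted p under 0.05), against 44.4% of all genes tested, 40.6% higher and 3.72% lower. Their median log2 fold change was 0.57, beside 0.51 for all genes tested. Values of the PIR+ and PIR- wild-type libraries did not overlap for 43 genes that were higher in PIR+ and 1 that was lower, against 47.6% and 4.36% of all genes. After median-of-ratios scaling, which divides each library by a factor that centres the median gene, 2 of the 72 were called higher and 4 lower, against 22.6% of all genes (11.5% higher and 11% lower), and the family's median was 0.06. Called on both scales were 2 higher and 1 lower, against 11.5% and 3.7% of all genes. With only the 6 libraries that carry 1 PIR sign in both labels, 11 were called on the deposited scale, against 23.2% of all genes, and without the 5 globin-rich libraries 4 were, against 15.4%. Both of these fits leave 1 or 2 libraries in every group and a single PIR- wild-type library, which is assumed to vary like the other groups. The fit with 1 PIR sign in both labels also leaves a single PIR+ KO library. In it every PIR+ library is labelled E12.5 and every PIR- library E14.5, so subset and labelled age cannot be told apart there. Of the 98 genes of the family with a p-value for PIR+ against PIR- in wild type in the authors' deposited table, 6 were under 0.05, against 12.6% of all genes, and these were Eef1a1, Eef1g, Eef2k, Eif1, Eif2ak4 and Iars. Leaving out PIR+ wild-type replicate 3 or PIR- wild-type replicate 1 gave 23 calls each, against 29.1% and 32.3% of all genes.

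**Figure D2:**
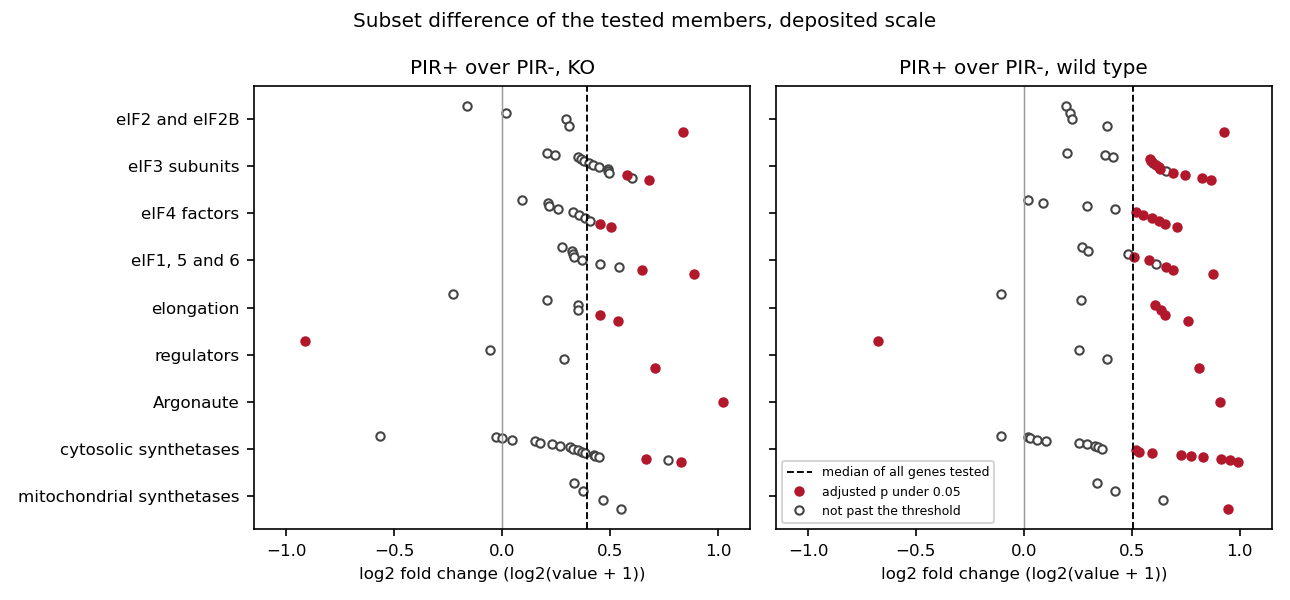
Log2 fold change of PIR+ over PIR- (horizontal axis, deposited scale) for the 72 tested genes by role, in KO and in wild-type cells. Filled points passed an adjusted p of 0.05, open points did not, and the dashed line is the median of all genes tested, 0.39 in KO and 0.51 in wild type. Most points lie around that line, and Eef2k lies farthest to the left, at -0.92 and -0.68.

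Among the eIF2 and eIF2B genes, 1 of 5 was called higher in PIR+ wild-type cells, against 40.6% of all genes tested. That gene, Eif2a, encodes an initiation factor that can deliver initiator tRNA independently of eIF2 and is not a subunit of it. It was 12.1, 17.1 and 19.7 in PIR+ wild-type libraries, against 6.9, 11.6 and 6.2 in PIR- wild-type libraries, which do not overlap. The limma log2 fold change was 0.93 ± 0.29 (SE, adjusted p = 0.00669), and it was not called after scaling (adjusted p = 0.220) or without PIR+ wild-type replicate 3 (adjusted p = 0.0576). Eif2s1, the subunit of eIF2 that the stress kinases phosphorylate, was 30.5, 37.5 and 45.4 in PIR+ wild-type libraries, against 29.7, 24.1 and 31.8 in PIR- wild-type libraries. Those groups overlap, and the fold change of 0.38 was not called (limma adjusted p = 0.146). Eif2s2, the beta subunit, was not called either (0.20, limma adjusted p = 0.399).

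The eIF3 subunits, which form the largest initiation factor, were called higher in 9 of 14 cases in PIR+ wild-type cells. None was called lower, and of all genes tested 40.6% were called higher and 3.72% lower. The log2 fold changes of the 14 ran from 0.20 to 0.87. After scaling none of the 14 was called, against 22.6% of all genes. Of the 14, 3 then had an unadjusted limma p under 0.05, against 1492 of all 4542 genes tested. Eif3k had 62.8, 96.7 and 116.6 in PIR+ wild-type libraries, against 49.8, 48.0 and 47.3 in PIR- wild-type libraries (0.87 ± 0.20, limma adjusted p = 0.000284, and 0.0593 after scaling). Every PIR+ library was above every PIR- library. Eif3f, an MPN-domain subunit, was 118.7, 120.4 and 124.7 in PIR+ wild-type libraries, against 72.6, 69.7 and 93.9 in PIR- wild-type libraries (0.63, limma adjusted p = 0.00395). Eif3j1 and Eif3j2 are near-identical copies whose reads may have been split between them, and neither was called.

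Among the eIF4 factors 6 of 10 were called higher, against 40.6% of all genes tested. After scaling none was called in either direction, against 22.6% of all genes. Eif4a1, the main helicase that unwinds leaders, was 227.8, 221.0 and 259.0 in PIR+ wild-type libraries, against 149.5, 158.8 and 173.0 in PIR- wild-type libraries (0.55, limma adjusted p = 0.00793, and 0.796 after scaling). Its paralog Eif4a2 was 19.7, 19.1 and 27.1 in PIR+ wild-type libraries, against 21.7, 17.0 and 26.4 in PIR- wild-type libraries, with a fold change of 0.02 (limma adjusted p = 0.948). The difference between the paralogs was not tested. Eif4g1, the scaffold that joins cap and ribosome, was 52.7, 80.2 and 78.0 in PIR+ wild-type libraries, against 38.7, 51.9 and 46.6 in PIR- wild-type libraries, and was called (0.59, limma adjusted p = 0.0139). That call was lost without PIR+ wild-type replicate 2 or 3 or PIR- wild-type replicate 1 (adjusted p = 0.0938, 0.0796 and 0.0955). Eif4e, the cap-binding protein, was 26.7, 27.0 and 38.0 in PIR+ wild-type libraries, against 24.9, 24.8 and 36.5 in PIR- wild-type libraries, and was not called (0.09, limma adjusted p = 0.758).

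Of the eIF1, eIF5 and eIF6 genes, 5 of 9 were called higher, against 40.6% of all genes tested. Eif5a, whose product helps ribosomes past difficult peptide bonds, was 500.7, 566.3 and 678.6 in PIR+ wild-type libraries, against 387.0, 381.1 and 448.5 in PIR- wild-type libraries (0.51, limma adjusted p = 0.00959, and 0.0915 without PIR+ wild-type replicate 3). Its log2 fold change after scaling was -0.0035. Eif1, which guards start codon choice, was 0.30 on the deposited scale and not called, and after scaling it was called lower at -0.22 (limma adjusted p = 0.0474).

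The elongation genes, with Eef1e1 counted among them, were called higher in 4 of 6 cases, against 40.6% of all genes tested. Called higher after scaling as well were 2 of the 6, Eef1a1 and Eef1g, against 11.5% of all genes. Eef1a1, which brings charged tRNAs to the ribosome (GRCm38 chr9:78478449-78489151, minus strand, the build of all gene locations here), was 1393.0, 1387.9 and 1673.5 in PIR+ wild-type libraries, against 904.0, 915.2 and 998.0 in PIR- wild-type libraries. The groups do not overlap, with a log2 fold change of 0.66 ± 0.16 (limma adjusted p = 0.000677) and 0.14 ± 0.05 after scaling (adjusted p = 0.0497). Eef1g, a subunit of the factor that recharges eEF1A with GTP (chr19:8967041-8978479, plus strand), was 303.3, 306.5 and 418.3 in PIR+ wild-type libraries, against 190.3, 199.8 and 208.7 in PIR- wild-type libraries. It was 0.76 ± 0.17 higher (limma adjusted p = 0.000195) and 0.25 ± 0.08 higher after scaling (adjusted p = 0.0241). Without the globin-rich libraries neither was called (adjusted p = 0.145 for Eef1a1 and 0.102 for Eef1g, both on the deposited scale), nor on the scaled values, where Eef1a1 was 0.08 (adjusted p = 0.581) and Eef1g 0.14 (0.510). Eef2, which moves the ribosome along by 1 codon, was 231.6, 278.2 and 269.1 in PIR+ wild-type libraries, against 169.6, 146.4 and 196.3 in PIR- wild-type libraries (0.61, limma adjusted p = 0.00325, and 0.482 after scaling). Eef1a1 has many processed pseudogenes in the mouse, so the assignment of its reads is uncertain. Of 9 genes of the family known to carry a 5′ oligopyrimidine tract, the leader motif through which mTOR controls translation, 7 were called higher in PIR+ wild-type cells with a median of 0.61, and 3 in PIR+ KO cells with a median of 0.36. Of all genes 40.6% and 22.5% were called higher there, with medians of 0.51 and 0.39. After scaling 2 of the 9 were called higher in wild type and none in KO, with medians of 0.09 and -0.04.

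The regulators differed among themselves. Of 4 tested, 1 was called higher and 1 lower in PIR+ wild-type cells, against 40.6% and 3.72% of all genes tested. Eif4enif1, a transporter and partner of eIF4E named here after its values were seen, was the higher one (0.81, limma adjusted p = 0.0142), and after scaling it was 0.33 and not called (adjusted p = 0.339). Eif4ebp1, the best known 4E-binding protein, was 15.2, 22.4 and 23.7 in PIR+ wild-type libraries, against 13.8, 17.0 and 14.7 in PIR- wild-type libraries, and was not called (0.39, limma adjusted p = 0.219).

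Eef2k (chr7:120842831-120907450, plus strand) was lower in PIR+ cells of both genotypes. It was 8.2, 11.8 and 13.6 in PIR+ wild-type libraries, against 15.4, 20.9 and 18.6 in PIR- wild-type libraries. Among the KO libraries it was 6.1, 15.2 and 13.7 in PIR+ libraries, against 19.1, 19.0 and 27.2 in PIR- libraries. Neither pair overlaps, so each of the 3 PIR+ libraries lay below each of the 3 PIR- libraries of its genotype. The limma log2 fold change was -0.68 ± 0.29 in wild type (adjusted p = 0.0449) and -0.92 ± 0.29 in KO (adjusted p = 0.0114). After scaling it was -1.16 ± 0.26 (adjusted p = 0.00118) and -1.28 ± 0.26 (adjusted p = 0.000554). These levels rest on few molecules, an estimated 10 to 31 in PIR+ KO, 13 to 20 in PIR+ wild-type, 33 to 37 in PIR- KO and 24 to 29 in PIR- wild-type libraries. On the deposited scale the calls were lost without the globin-rich libraries (adjusted p = 0.333 in wild type and 0.265 in KO) and in the libraries with 1 PIR sign in both labels (0.262 and 0.194). In wild type the call was lost without PIR+ wild-type replicate 1 (-0.49, adjusted p = 0.189) or 2 (0.0671), PIR- wild-type replicate 2 (0.141) or 3 (0.0702), or PIR- KO replicate 2 (0.0502), and also with a pseudocount of 0.1 (0.0568) or no filter (0.118). In KO it was lost without PIR+ KO replicate 1 (-0.54, adjusted p = 0.200) or PIR- KO replicate 3 (0.0605), and with no filter (0.0514). On the scaled values it was called in all 12 fits that left out 1 library, in wild type with an adjusted p of 0.000216 to 0.00964 and in KO with 9.82e-05 to 0.00908. Without the globin-rich libraries it was called on the scaled values too, at -1.11 in wild type (adjusted p = 0.0266) and -0.93 in KO (0.0191). The B-lineage markers above moved with Eef2k across the subsets, and their part in it was not tested.

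**Figure D3:**
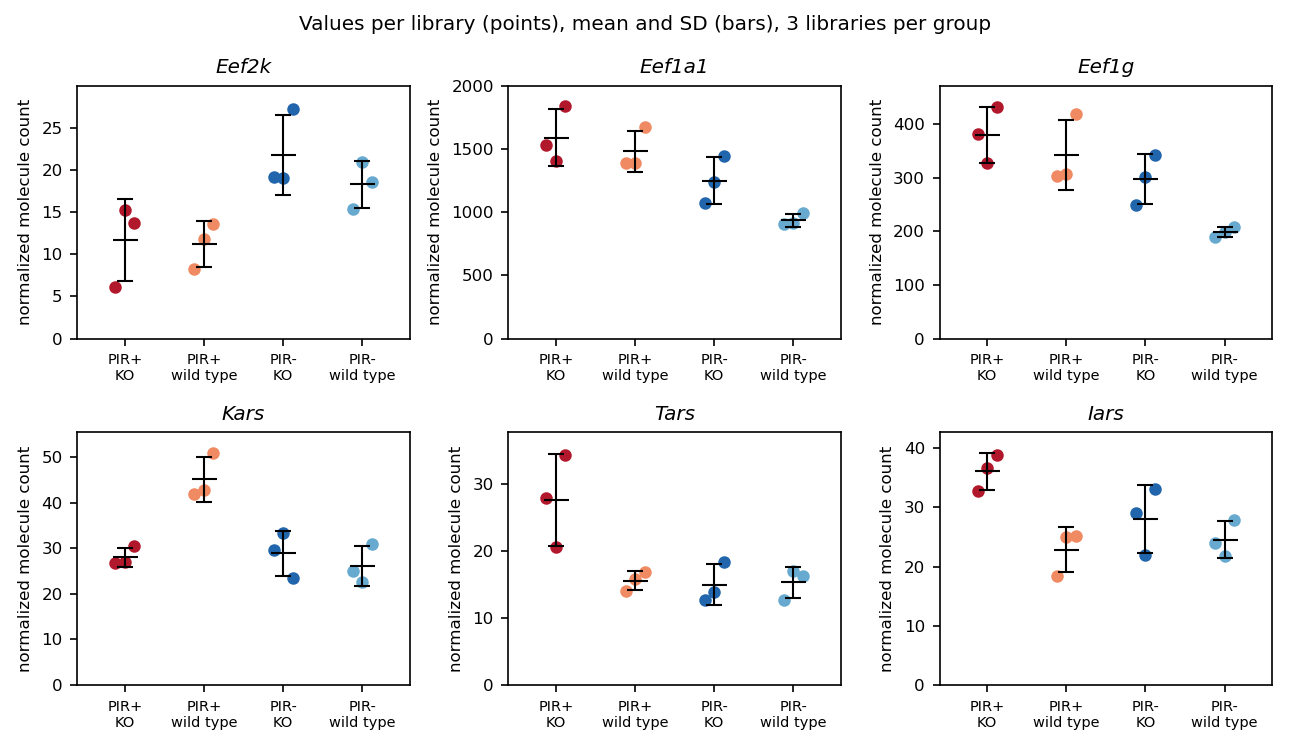
Normalized molecule counts (vertical axes from 0) of Eef2k, Eef1a1, Eef1g, Kars, Tars and Iars in single libraries of PIR+ KO, PIR+ wild type, PIR- KO and PIR- wild type, with mean and SD of 3. Eef2k is at 6.1 to 15.2 in PIR+ and 15.4 to 27.2 in PIR- libraries, and Kars stands out at 41.9 to 50.8 in PIR+ wild-type libraries.

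The cytosolic synthetases were called higher in 9 of 19 cases in PIR+ wild-type cells, against 40.6% of all genes tested. The median of the 19 was 0.36, beside 0.51 for all genes. These synthetases were classed by a symbol with no 2 at its end, so a gene that serves both compartments counts as cytosolic here. Vars, the valine enzyme, was 67.3, 84.2 and 65.8 in PIR+ wild-type libraries, against 46.1, 48.8 and 55.1 in PIR- wild-type libraries (0.52, limma adjusted p = 0.0270). Eprs, the joined glutamate and proline enzyme, was 50.8, 49.3 and 49.5 in PIR+ wild-type libraries, against 28.6, 32.5 and 42.7 in PIR- wild-type libraries (0.53, limma adjusted p = 0.0364). Neither was called after scaling. The Vars call was lost without PIR+ wild-type replicate 2 (adjusted p = 0.153) or PIR- wild-type replicate 1 or 2 (0.103 and 0.0722), and the Eprs call without any 1 of PIR+ wild-type replicates 1, 2 and 3 and PIR- wild-type replicates 1 and 2 (0.0681 to 0.181). Aars, the alanine enzyme, was 15.9, 22.4 and 21.7 in PIR+ wild-type libraries, against 13.8, 15.5 and 16.3 in PIR- wild-type libraries, and was not called (0.36, limma adjusted p = 0.249). Iars and Gars, for isoleucine and glycine, were near equal on the deposited scale (-0.10 and 0.10), and both were called lower after scaling (Iars at -0.60, adjusted p = 0.0122, and Gars at -0.40, adjusted p = 0.0321). Qars and Kars, for glutamine and lysine, were called higher at 0.95 and 0.77 (limma adjusted p = 0.000573 and 0.00422), and neither after scaling. Of the 8 synthetases of the multisynthetase complex 4 were called higher, and of the 11 tested outside it 5 were, against 40.6% of all genes.

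Most mitochondrial synthetases, which charge tRNAs for the mitochondrial ribosome, were too low to test. The 17 summed to 89.5 to 132.3 in PIR+ KO, 79.1 to 119.2 in PIR+ wild-type, 62.8 to 92.5 in PIR- KO and 55.2 to 67.9 in PIR- wild-type libraries. Of the 4 tested, 1 was called higher in PIR+ wild-type cells, against 40.6% of all genes tested. Lars2, the leucine enzyme, was 9.5, 13.8 and 20.3 in PIR+ wild-type libraries, against 8.0, 12.4 and 6.2 in PIR- wild-type libraries, and was not called (0.64, limma adjusted p = 0.0811). Among the 30 genes below the filter, 17 had a higher and 11 a lower mean in PIR+ wild-type cells. With no filter 1 of them, Iars2, was called.

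In KO cells the PIR+ subset was again the higher one for most genes called. Summed values of whole libraries were 216841 to 284648 in PIR+ KO and 169949 to 222700 in PIR- KO libraries. Of the 72 tested, 13 were called higher and 1 lower in PIR+ KO cells, against 25.5% of all genes tested, 22.5% higher and 2.97% lower, and the family's median was 0.36 beside 0.39 for all. The groups did not overlap for 27 that were higher and 2 that were lower, against 35.7% and 3.43% of all genes. After scaling none was called higher and 2, Eef2k and Yars, were called lower, against 15.6% of all genes (8.12% higher and 7.51% lower). In either direction 8 of the 72 then had an unadjusted limma p under 0.05, against 1233 of all 4542 genes. Called on both scales were none higher and 1 lower, against 8.12% and 2.97%. In the libraries with 1 PIR sign in both labels the count was 7 on the deposited scale, against 19% of all genes, and without the globin-rich libraries it was 1, against 12.7%. Leaving out PIR+ KO replicate 1 or 3 or PIR- KO replicate 1 or 2 gave 6, 3, 4 and 6 calls, against 20.5%, 14.6%, 15.9% and 18.9% of all genes. By class, 2 of 14 eIF3, 2 of 10 eIF4, 2 of 9 eIF1, eIF5 and eIF6, 2 of 6 elongation, 1 of 5 eIF2 and eIF2B and 2 of 19 cytosolic synthetase genes were called higher. Tars, for threonine (chr15:11382301-11399665, minus strand), had the largest rise among the synthetases called, with 27.9, 20.6 and 34.2 in PIR+ KO libraries, against 12.7, 13.8 and 18.4 in PIR- KO libraries (0.83 ± 0.26, limma adjusted p = 0.0132, and 0.134 after scaling). All 3 PIR+ KO libraries lay above the PIR- KO libraries, and the call was lost without PIR+ KO replicate 3 (adjusted p = 0.115) or PIR- KO replicate 1 or 2 (0.0740 and 0.0538). Eef2 was 259.9, 252.2 and 334.6 in PIR+ KO libraries, against 184.8, 195.5 and 235.8 in PIR- KO libraries (0.45, limma adjusted p = 0.0416), a call lost in 6 of the 12 fits that left out 1 library, with the highest adjusted p, 0.240, without PIR+ KO replicate 3. Eef1a1 and Eef1g, at 0.35 each, were not called (limma adjusted p = 0.0933 and 0.109), and after scaling both stood at -0.05.

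The comparisons in wild type and in KO share no library in their group means. Their p-values are not independent, since all 12 libraries gave 1 estimate of the spread per gene. On the deposited scale 10 of the 72 were called higher in both, against 17.7% of all genes tested. They are Eef1b2, Eef2, Eif1b, Eif2c1, Eif3d, Eif3e, Eif4a1, Eif4enif1, Eif4g2 and Qars. The 10 are 27.0% of the 37 called higher in wild type and 76.9% of the 13 called higher in KO. Eef2k was the only one of the 72 called lower in both, against 2.42% of all genes. After scaling none was called higher in both (against 6.01%) and Eef2k was again the 1 called lower in both (against 5.86%).

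**Figure D4:**
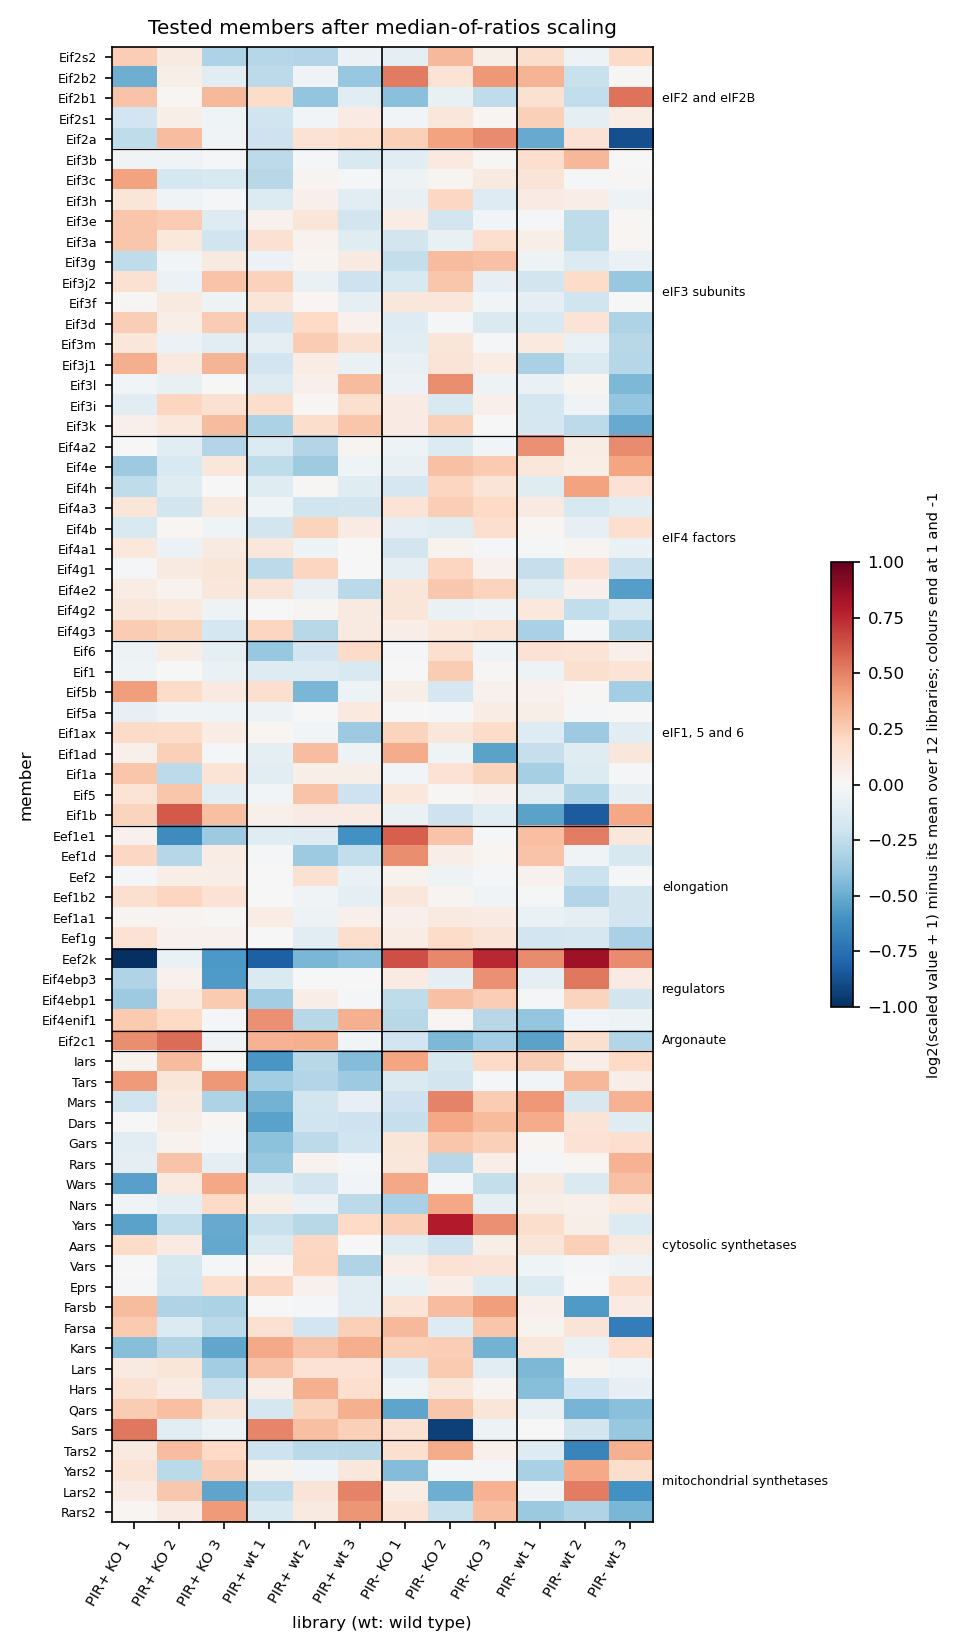
Scaled values of the 72 tested genes (rows, by role) in the 12 libraries (columns, PIR+ KO, PIR+ wild type, PIR- KO, PIR- wild type), as log2(scaled value + 1) minus the gene's mean over the libraries. Red is above and blue below the mean, and the colours end at 1 and -1. Most rows are pale, with a median range of group means of 0.316, and Eef2k is blue in PIR+ and red in PIR- libraries.

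After scaling the family varied little. The median range of the 4 group means was 0.316 log2 units over its 72 tested genes, beside 0.466 over all 4542, and the median SD within groups was 0.193, beside 0.268. Only Eef2k had group means more than 1 log2 unit apart (1.39% of the 72), against 14.6% of all genes.

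Between KO and wild-type libraries of the PIR+ subset, none of the 72 was called by limma on the deposited scale, against 0.903% of all genes tested. Of the 72, 4 had an unadjusted limma p under 0.05, against 313 of all 4542 genes tested. The groups did not overlap for 10 that were higher and 1 that was lower in KO, against 8.04% and 3.04% of all genes. After scaling 1 of the 72 was called, against 1.01% of all. The smallest p-values belonged to 3 synthetases. Kars, for lysine (chr8:111993443-112011323, minus strand), was 26.7, 26.9 and 30.4 in PIR+ KO libraries, against 41.9, 42.7 and 50.8 in PIR+ wild-type libraries. The groups are apart, with a log2 fold change of -0.67 ± 0.23 (adjusted p = 0.217), and after scaling it was the gene called, at -0.76 (adjusted p = 0.0222). Tars was 27.9, 20.6 and 34.2 in PIR+ KO libraries, against 14.0, 15.8 and 16.9 in PIR+ wild-type libraries (0.76 ± 0.26, limma adjusted p = 0.245). Iars was 32.7, 36.7 and 38.8 in PIR+ KO libraries, against 18.4, 25.0 and 25.1 in PIR+ wild-type libraries (0.65 ± 0.23, limma adjusted p = 0.303). Neither pair overlaps, and neither gene was called on either scale. In the authors' deposited table, 4 of the 99 genes of the family with a p-value for this contrast were under 0.05, namely Eef1b2, Iars, Kars and Tars, against 3.08% of all genes with a p-value there. Its header does not say whether the p-values are adjusted.

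Between KO and wild-type libraries of the PIR- subset, none of the 72 was called on the deposited scale, against 1.3% of all genes tested. Of the 72, 18 had an unadjusted limma p under 0.05, against 629 of all 4542 genes tested. The family's median was 0.26 beside 0.20 for all genes, and 18 of the 72 did not overlap between the groups, all of them higher in KO. Such separation occurred in 14.4% of all genes with KO higher and in 1.01% with KO lower. Of the erythroid markers 3 of 5 tested were called lower in PIR- KO cells (median -2.28), with sums of 1418, 69.6 and 80.0 in PIR- KO libraries, against 197, 1519 and 1639 in PIR- wild-type libraries. Tfrc, 1 of the 5, went the other way, at 28.8 to 38.2 in PIR- KO and 24.8 to 28.7 in PIR- wild-type libraries. None of the 5 erythroid markers was called after scaling. Of the neutrophil and monocyte markers 2 of 3 tested were called higher (median 1.71), and the part of either in these values was not tested. After scaling 1 of the 72 was called, against 1.7% of all. Eif2a was 13.2, 16.7 and 20.6 in PIR- KO libraries, against 6.9, 11.6 and 6.2 in PIR- wild-type libraries (0.97 ± 0.29, limma adjusted p = 0.0652). Eef1g was 250, 302.1 and 341.7 in PIR- KO libraries, against 190.3, 199.8 and 208.7 in PIR- wild-type libraries (0.56 ± 0.17, limma adjusted p = 0.0777). After scaling Eef1g was the gene called, at 0.35 (adjusted p = 0.0138), and without the globin-rich libraries its scaled value was 0.34 (adjusted p = 0.173). Eif3k was 65.1, 81.3 and 80.8 in PIR- KO libraries, against 49.8, 48.0 and 47.3 in PIR- wild-type libraries (0.63, limma adjusted p = 0.105). Eif2a was called without PIR- wild-type replicate 2 (1.22, limma adjusted p = 0.0158) or PIR- KO replicate 1 (1.13, 0.0407), and Eef1g without PIR- KO replicate 1 (0.69, 0.0246).

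The difference between the KO effects in PIR+ and in PIR- cells was tested as an interaction. None of the 72 was called by limma, against 0.572% of all genes. An unadjusted limma p under 0.05 was found for 3 of the 72, against 250 of all 4542 genes. After scaling none was called either, against 0.749% of all genes. Then 8 of the 72 had an unadjusted limma p under 0.05, against 399 of all 4542 genes. The 3 on the deposited scale were Kars (-0.80 ± 0.32, adjusted p = 0.560), Eif2a (-0.91 ± 0.40, adjusted p = 0.742) and Tars (0.80 ± 0.37, adjusted p = 0.805).

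Eif1ax, an X-linked start codon factor named here after its values were seen, was 49.7, 45.5 and 55.5 in PIR+ KO libraries, against 38.7, 40.8 and 35.9 in PIR+ wild-type libraries. Xist, the RNA that coats the silenced X, was 31.3 to 34.2 in PIR+ KO and 12.7 to 18.4 in PIR+ wild-type libraries. In PIR- cells Eif1ax was 35.0, 36.3 and 44.8 in KO libraries, against 24.9, 21.7 and 30.3 in wild-type libraries, while Xist was 6.9 to 14.7 and 2.7 to 18.6 there. Eif1ax was called in neither KO comparison (limma adjusted p = 0.817 in PIR+ and 0.203 in PIR-). The part of sex was not tested here or in the other comparisons with the PIR+ KO libraries, where Ddx3y was lowest.

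Other genes of the pathway were read from lists chosen with earlier results known, and their counts stand beside 40.6% of all genes called higher in PIR+ wild-type cells and 22.5% in PIR+ KO cells. Called lower there were 3.72% and 2.97% of all genes. After scaling 11.5% were called higher and 11% lower in wild type, and 8.12% and 7.51% in KO. Of 15 tested termination, recycling and other factors, 5 were called higher and none lower in PIR+ wild-type cells, and 3 in PIR+ KO cells. After scaling none was called higher and 1, Tpt1, was called lower in both genotypes (-0.18 in wild type and -0.23 in KO). Gspt1, the release factor eRF3, was 69.2, 64.5 and 63.0 in PIR+ wild-type libraries, against 39.0, 42.6 and 41.1 in PIR- wild-type libraries (0.67, limma adjusted p = 0.00539, and 0.427 after scaling). Of 4 tested mitochondrial factors 1, Mrrf, which recycles mitochondrial ribosomes, was called higher in wild type (1.60, limma adjusted p = 0.000102) and none in KO. A list of ATF4, the transcription factor that rises when eIF2 is phosphorylated, and its targets had 8 tested genes. Of these, 1 was called higher in wild type on the deposited scale. After scaling 3 of the 8 were called lower in wild type, Atf4 itself (-0.68, limma adjusted p = 0.0147), Cebpg (-0.73, 0.0122) and Psat1 (-0.48, 0.0211), against 11% of all genes. In KO 1 of the 8 was called lower after scaling, against 7.51%. Of 5 tested genes of the mTOR complex and its regulators, 1 was called higher in wild type and 2 in KO, with Rps6kb1, the S6 kinase gene, called in both (0.68 and 0.87) and no gene of the list called in either after scaling. Of 3 tested Myc genes 1, Mycn, was called in both. It was 37.6, 30.4 and 41.8 in PIR+ KO libraries, against 1.1, 2.9 and 2.2 in PIR- KO libraries, and 33.0, 27.6 and 35.9 in PIR+ wild-type libraries, against 0, 2.3 and 2.3 in PIR- wild-type libraries. The proliferation genes Mki67 and Top2a were called lower in PIR+ wild-type cells (-0.80 and -0.64), and Pcna was called lower after scaling only (-0.68). In PIR+ KO cells the 3 were called lower after scaling and none on the deposited scale. The genes of this paragraph were named after their values were seen.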

How the data were processed

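The authors deposited one table of 23420 genes and 12 libraries whose values are signal: molecule counts scaled per library, given to 1 decimal. TopHat2, DESeq2 and the mouse build mm10 are named in the submitters' processing notes, with versions and counting tool not given in the sources used here. Per the labels' protocols, the tubes received ERCC RNA and the reverse transcription primer held a molecular barcode. The deposited table has 2 further columns, p-values of the authors. Between 93.0% and 94.2% of the values under 15 lay within 0.055 of a multiple of 1 step, so whole counts were not assumed, and count models were not run. Summed values were 155374 to 284648 per library.

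The test was limma 3.58.1 (R 4.3.3). Its input was log2(value + 1) of the genes at 10 or above in 3 or more of the 12 libraries, fitted as 4 group means with a mean-variance trend. P-values were adjusted by Benjamini-Hochberg over all 4542 genes tested, separately in each comparison, with 0.05 as the threshold. The added 1 understates changes of low genes. Fits were checked on simulated data for KO against wild type in PIR+ only. The simulation held no shift of whole libraries, so it does not bear on the subset comparisons. The labels do not say that replicate numbers pair the libraries, and the correlations of same-numbered deviations were -0.103 to 0.162. For PIR+ against PIR- in KO they were 0.162, 0.0409 and 0.0623. There each PIR+ library correlated best with the PIR- library of its own number, so pairing in KO was not settled. In the other comparisons the best partner mostly had another number. The p-values measure the spread between these libraries, which may be technical.

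Median-of-ratios factors of 0.753 to 1.46 gave the second scale. It moved the median log2 fold change of all genes, 0.51 (wild type) and 0.39 (KO) for PIR+ over PIR- as deposited, to 0.02 and 0.01. Other alternatives were a pseudocount of 0.1, no filter, the replicate block, the embryonic day, subsets of libraries and leaving out each library. The gene family and lists were chosen with earlier results of these data known. Genes named in the text are a fixed set (Eif4e, Eif4g1, Eif4a1, Eif4a2, Eif4ebp1, Eif2s1, Eif5a, Eef1a1, Eef2, Eprs and Aars), the highest gene of each role, for PIR+ against PIR- up to 3 per role and direction called on both scales and averaging 20 or more in the higher group and, for KO comparisons and the interaction, the 3 with the smallest p. Eif1, Gars, Yars, Qars and genes said in the text to be so were named after their values were seen. Gene locations come from GENCODE M21 (98 of 102 symbols matched) and promoters from RefSeq on GRCm38.p6 (73 matched). Figures used matplotlib 3.10.9 (Python 3.11.15).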

Additional observations from a re-analysis of the deposited data

Results flagged for a closer look

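Yars, the tyrosine synthetase (chr4:129189760-129219607, plus strand), separated the subsets in opposite directions in the genotypes. It was 6.7, 7.8 and 8.4 in PIR+ KO libraries, all below the 8.5, 14.4 and 13.2 of PIR- KO libraries, and 7.6, 7.9 and 12.9 in PIR+ wild-type libraries, all above the 7.4, 7.0 and 7.0 of PIR- wild-type libraries. The difference itself was -0.90 ± 0.46 (log2, SE) as an interaction and was not called (limma adjusted p = 0.885). In KO alone Yars was called after scaling at -0.92 (limma adjusted p = 0.0177) and not on the deposited scale (-0.57, adjusted p = 0.179). The gaps, 8.4 against 8.5 in KO and 7.6 against 7.4 in wild type, are smaller than the 0.490 to 0.775 units that 1 molecule was worth, so the separation rests on less than 1 molecule.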

How the results depend on the processing

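The scale decided most calls. For PIR+ against PIR- in wild type, 38 genes were called on the deposited scale, 6 after scaling, 4 without the globin-rich libraries, 11 in libraries with 1 PIR sign in both labels, 2 after scaling without the globin-rich libraries, and 23 to 39 when 1 library was left out. In KO the count was 14 on the deposited scale, 2 after scaling, 6 with no filter, 29 with the replicate block (37.1% of all genes), 1 without the globin-rich libraries, 7 with 1 PIR sign in both labels, 3 after scaling without the globin-rich libraries, and 3 to 21 with 1 library left out. For KO against wild type it was 0 and, after scaling, 1 in each subset. In PIR- it was 6 with the replicate block (4.6% of all genes; Eef1g adjusted p = 0.00108, Eif3k 0.0134, Eif2a 0.0192) and 0 to 2 with 1 library left out. The interaction gave 0 under every alternative run. No share of all genes is given for scaling without the globin-rich libraries, for the fit with no filter or for most fits that left out 1 library. The counts from those fits therefore cannot tell a change in the family from a change in all genes. Scaling shifts all genes nearly alike: in wild type 69 of the 72 fold changes were positive as deposited and 40 after scaling, with 29 of another sign. Among the named genes called in wild type on either scale, the sign turned for Eif1 (-0.22 after scaling, -0.076 after scaling without the globin-rich libraries), Eif5a (-0.0035 and -0.083) and Gars (-0.40 and -0.36, and -0.019 to 0.23 with 1 library left out), and for Iars (-0.18 to 0.038 with 1 library left out). The causes were not tested. Scaling without the globin-rich libraries, and scaling with 1 library left out for Eef2k, were chosen after seeing the data. The labels do not say that replicate numbers pair libraries, so the block is given only as an alternative. The eIF2 kinases and 13 of 17 mitochondrial synthetases fell below the filter and were tested only in the fit with none.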
